A study of Mus musculus with 12 samples.

Results

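The effect of secretory leukocyte protease inhibitor (SLPI) on the transcriptome of osteoblastic cells was examined in MC3T3-E1 cells, a clonal line of osteoblast precursors from mouse calvaria. The cells carried the retroviral vector pMX-IRES-Puro, either empty (mock) or with the full-length mouse *Slpi* cDNA, and both populations had been selected with puromycin. Total RNA was taken from subconfluent cultures, and mRNA was sequenced. The comparison used 6 of the 12 libraries of the study, 3 of mock and 3 of *Slpi*-overexpressing cells, chosen by their labels alone. The other 6 libraries came from osteoblasts sorted from mice given parathyroid hormone (PTH) or vehicle and were not used here. Neither the labels nor the methods say whether the 3 libraries of a group came from separate cultures or transductions. The *p* values therefore measure only the spread between these libraries, which may be technical, and a difference between the 2 populations cannot be told apart from a difference between *Slpi* and empty vector.

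SLPI is a small secreted protein of the whey acidic protein family that inhibits serine proteases such as neutrophil elastase and cathepsin G, and that also acts on inflammatory transcription. Osteoblasts mature from precursors under the transcription factors RUNX2 and SP7 (osterix), and Wnt ligands that stabilize beta-catenin promote this step. Mature cells lay down type I collagen and mineralize it with enzymes that release phosphate, and they control osteoclasts through RANKL and its decoy receptor osteoprotegerin. MC3T3-E1 cells are known for going through these steps in osteogenic medium, and the labels name no such medium for these libraries.

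Levels are given as deposited, in FPKM, the number of sequenced fragments scaled by transcript length and by the mapped reads of the library. Fold changes are differences in log2(FPKM + 1), *Slpi* minus mock, from limma, and understate the change of genes with low FPKM. A gene rose or fell if its *p*, adjusted over all 11466 tested genes (those that reached 1 FPKM in any of the 6 libraries), was under 0.05, and a 2-fold change also required a log2 fold change of at least 1 in size. Genes under 1 FPKM in all libraries of 1 group entered the test only through the other group. Their direction was thus partly set by this filter.

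The overexpressed gene was examined first. *Slpi* was at 377, 396 and 386 FPKM in mock and 2105, 1973 and 1848 FPKM in *Slpi* cells. All 3 *Slpi* libraries were above all 3 mock libraries (log2 fold change 2.35, SE 0.0491, adjusted *p* = 3.9e-08, limma), and the ratio of the mean FPKM was 5.11. The exact two-sided permutation test gave *p* = 0.1, the smallest value that 3 libraries against 3 allow. Mock cells already expressed the gene, which ranked between 182 and 188 among all genes by FPKM in mock libraries and between 44 and 49 in *Slpi* libraries. FPKM of *Slpi* do not separate transcripts of the vector from those of the endogenous gene, whose 396 coding bases lie in 3 exons on chromosome 2 (mm10, GENCODE M21). These coding exons, which the vector's cDNA and the genome share, are shown 5′ to 3′ in the order of the transcript, with the start and stop codons in capitals.
*Slpi* coding exon 1, chr2:164356188-164356272, minus strand: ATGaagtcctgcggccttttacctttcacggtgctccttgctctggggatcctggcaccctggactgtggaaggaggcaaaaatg
*Slpi* coding exon 2, chr2:164355451-164355612, minus strand: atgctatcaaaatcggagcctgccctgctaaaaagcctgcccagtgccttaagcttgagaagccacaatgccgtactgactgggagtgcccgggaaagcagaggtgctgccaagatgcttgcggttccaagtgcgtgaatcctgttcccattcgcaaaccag
*Slpi* coding exon 3, chr2:164354877-164355025, minus strand: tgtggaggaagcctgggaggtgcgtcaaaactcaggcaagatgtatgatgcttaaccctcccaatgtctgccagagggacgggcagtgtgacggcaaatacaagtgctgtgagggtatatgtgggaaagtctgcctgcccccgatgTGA

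The 6 libraries were close in size and content, but the 2 groups did not overlap. Between 11144 and 11156 genes reached 1 FPKM in mock libraries, and between 11049 and 11069 in *Slpi* libraries. FPKM of all genes summed to 541932.2 to 546285.5 in mock and 567904.8 to 599746.4 in *Slpi* libraries. Sequencing depth was estimated from the steps of low FPKM, relative to mock replicate 1. It was 0.992 and 0.907 in mock replicates 2 and 3, and between 0.869 and 0.882 in *Slpi* libraries. The part of these differences in those of single genes was not tested. The median standard deviation of log2(FPKM + 1) over the tested genes was 0.0493 in mock and 0.0646 in *Slpi* cells. All 12 markers of osteoblastic and stromal identity were tested, and their FPKM summed to 14788 to 15339 in mock and 15394 to 16584 in *Slpi* cells. *Col1a1* and *Col1a2* made up most of these sums. Of the 12 markers, 5 rose and 5 fell. For this and the counts that follow, 31.9% of all tested genes rose and 28.9% fell. Most markers of other cell types were low. Only 2 of 10 hematopoietic markers were tested, and *Adgre1*, *Tyrobp* and *Cd3e* were listed at 0 in all 6 libraries. The muscle genes *Myod1* and *Myog* and the endothelial gene *Cldn5* were also listed at 0. Of adipocyte and epithelial markers, 1 each was tested, *Cebpa* and *Krt14*, and both fell (log2 fold changes -0.59 and -0.67). Of 5 tested chondrocyte markers, 3 rose and 1 fell. *Col11a2*, *Matn3* and *Col2a1* rose (log2 fold changes 0.85, 0.50 and 0.17), and the transcription factor gene *Sox9* fell (-0.74). *Col2a1* was at 93.2, 84.1 and 93.1 FPKM in mock and 110.0, 92.9 and 102 FPKM in *Slpi* cells, and it did not pass when mock replicate 1, 2 or 3 or *Slpi* replicate 1 or 3 was left out (adjusted *p* in limma between 0.057 and 0.16). *Matn3* was near the filter, at 0.396, 0.274 and 0.382 FPKM in mock and 0.77, 0.953 and 1.023 FPKM in *Slpi* cells. Without *Slpi* replicate 3, 1 chondrocyte marker rose, since *Matn3* was then under the filter and was not tested. The part of these cell-type genes in the other differences was not tested.

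Most tested genes differed between the groups, and most differences were small. Of the 11466 genes, 6973 (60.8%) passed. In all, 3658 (31.9%) were higher and 3315 (28.9%) lower in *Slpi* cells, and 81.4% of those that passed had a log2 fold change under 0.5 in size. Only 84 genes (0.733%) were 2-fold higher and 44 (0.384%) 2-fold lower. The FPKM of the 2 groups did not overlap in any of these 128 genes (1.12%). Over all tested genes, groups did not overlap in 67.1%, with the *Slpi* libraries above in 34.9% and below in 32.2%. In such bulk libraries, fewer cells of a kind and less RNA per cell cannot be told apart. Counts for each group of genes below are to be read beside the shares over all tested genes, 31.9% higher and 28.9% lower. A count near them says little about its group. The groups were chosen with earlier results of these data known.

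**Figure D1:**
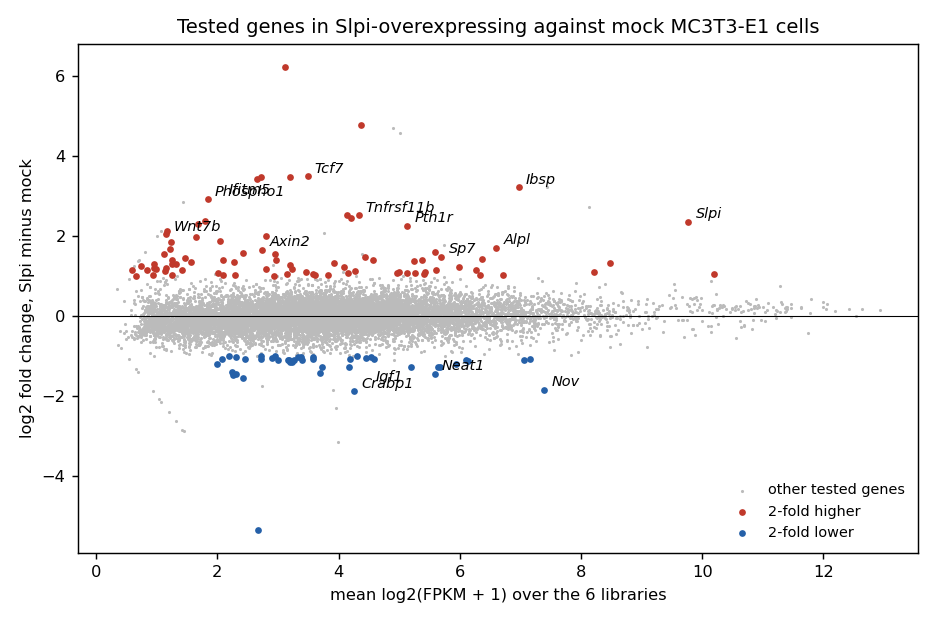
Log2 fold change of each tested gene (*Slpi* minus mock, vertical axis) against its mean log2(FPKM + 1) over the 6 libraries (horizontal axis). The 84 genes called 2-fold higher (red) and 44 called 2-fold lower (blue) stand outside a band of small differences, and the highest and lowest called points are the microRNA genes *Mir8097* and *Mir6376*.

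Osteoblast transcription factors differed in direction. Of 17 tested, 7 rose and 3 fell (31.9% and 28.9% over all tested genes), with a median log2 fold change of 0.02 against 0.00. *Sp7*, whose product is required for osteoblast formation, was at 30.9, 29.8 and 29.3 FPKM in mock and 88.3, 84.8 and 84.3 FPKM in *Slpi* cells (log2 fold change 1.49, SE 0.03502, adjusted *p* = 6.4e-08). *Runx2*, the master regulator of the lineage, was at 34.5, 34.3 and 34.2 FPKM in mock and 56.2, 56.4 and 54.8 FPKM in *Slpi* cells (log2 fold change 0.69, SE 0.0302, adjusted *p* = 1.5e-06). Both rose, *Runx2* by less than *Sp7*. *Dlx3*, a homeobox gene of bone and tooth, was nearly absent from mock cells, at 0.536, 0.497 and 0.543 FPKM in mock and 7.12, 7.64 and 6.18 FPKM in *Slpi* cells (log2 fold change 2.38, SE 0.0787, adjusted *p* = 4e-07). *Msx2*, another homeobox gene, *Ebf1* and *Tcf7l2* fell, with log2 fold changes of -0.83, -0.57 and -0.42.

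The genes of matrix mineralization included many of the largest rises. Of 27 tested genes of bone matrix and mineralization, 15 rose and 8 fell, against 31.9% and 28.9% of all tested genes. Of the 27, 5 were 2-fold higher, against 0.733% of all tested genes. Of these 5, *Phospho1* and *Smpd3* reached 1 FPKM only in *Slpi* libraries, so the filter admitted them through the group where they were higher. The list was chosen with earlier results of these data known. *Phospho1*, encoding the phosphatase that releases phosphate inside matrix vesicles, was at 0.449, 0.288 and 0.18 FPKM in mock and 8.26, 10.4 and 8.08 FPKM in *Slpi* cells (log2 fold change 2.92, SE 0.108, adjusted *p* = 6.8e-07). Its exons share 1590 bases with those of *Abi3* on the other strand, which also rose. Reads of the 2 genes in this stretch cannot be told apart. *Smpd3*, the neutral sphingomyelinase whose loss in mice impairs mineralization, was at 0.849, 0.934 and 0.998 FPKM in mock and 18.6, 22.2 and 18.4 FPKM in *Slpi* cells (log2 fold change 3.42, SE 0.0773, adjusted *p* = 6.2e-08). *Alpl*, the tissue-nonspecific alkaline phosphatase that degrades the mineralization inhibitor pyrophosphate, was at 54.6, 50.4 and 52.8 FPKM in mock and 179.5, 175 and 168 FPKM in *Slpi* cells (log2 fold change 1.71, SE 0.0399, adjusted *p* = 6.4e-08). Each of the 3 enzymes was higher in every *Slpi* library than in any mock library, as were 34.9% of all tested genes. *Ibsp*, encoding bone sialoprotein, was at 39.9, 37.9 and 42.5 FPKM in mock and 372, 409 and 364 FPKM in *Slpi* cells (log2 fold change 3.22, SE 0.0553, adjusted *p* = 3.2e-08). *Ifitm5*, a membrane protein of mineralizing osteoblasts, was at 1.61, 2.05 and 1.62 FPKM in mock and 29.3, 34.1 and 25.5 FPKM in *Slpi* cells (log2 fold change 3.47, SE 0.104, adjusted *p* = 2.2e-07). By FPKM, *Ibsp* was the most abundant of these 5 genes in *Slpi* cells and *Alpl* in mock cells, and *Phospho1* was the least abundant in both.

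The collagens and other structural genes changed by much less. *Col1a1*, encoding the main chain of type I collagen, was at 7561, 7507 and 7237 FPKM in mock and 8740.5, 8095 and 7983 FPKM in *Slpi* cells (log2 fold change 0.15, SE 0.0479, adjusted *p* = 0.023). It did not pass in limma without mock replicate 1, 2 or 3 (adjusted *p* = 0.053, 0.061 and 0.12) or without *Slpi* replicate 2 (adjusted *p* = 0.055). *Col1a2*, the partner chain, was at 5994, 6064 and 5801 FPKM in mock and 6211, 5856 and 5748 FPKM in *Slpi* cells (log2 fold change -0.00, SE 0.0441, adjusted *p* = 0.94). Overlapping levels of *Col1a2* stood beside a small rise of *Col1a1*. The mature osteoblast gene *Bglap* (osteocalcin) was low, at 1.69, 1.05 and 1.73 FPKM in mock and 2.801, 2.85 and 2.67 FPKM in *Slpi* cells (log2 fold change 0.61, SE 0.111, adjusted *p* = 0.0017). Its near-identical neighbour *Bglap2* was at 2.56, 2.18 and 1.49 FPKM in mock and 3.36, 3.88 and 5.203 FPKM in *Slpi* cells (log2 fold change 0.74, SE 0.158, adjusted *p* = 0.0037), and reads shared between these copies could have been split by the authors' assignment. Members that fell included the proteoglycan gene *Ogn*, at 312, 356 and 341 FPKM in mock and 160.0, 183 and 204 FPKM in *Slpi* cells (log2 fold change -0.89, SE 0.08396, adjusted *p* = 5.4e-05). *Spp1*, encoding osteopontin, which inhibits crystal growth, was at 737, 754 and 758 FPKM in mock and 563, 579 and 578 FPKM in *Slpi* cells (log2 fold change -0.39, SE 0.0304, adjusted *p* = 2.2e-05). Of 7 tested osteocyte markers, 1 rose (not without mock replicate 1 or 3 or *Slpi* replicate 2) and 4 fell, against 31.9% and 28.9% of all tested genes. Log2 fold changes of *Pdpn*, *Capg* and *Dstn* were -0.61, -0.54 and -0.38. *Dmp1* did not pass (log2 fold change -0.25, adjusted *p* = 0.062 in limma). *Sost* was listed at 0 in all 6 libraries, and *Phex*, *Mepe* and *Fgf23* were under the filter and were not tested.

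**Figure D2:**
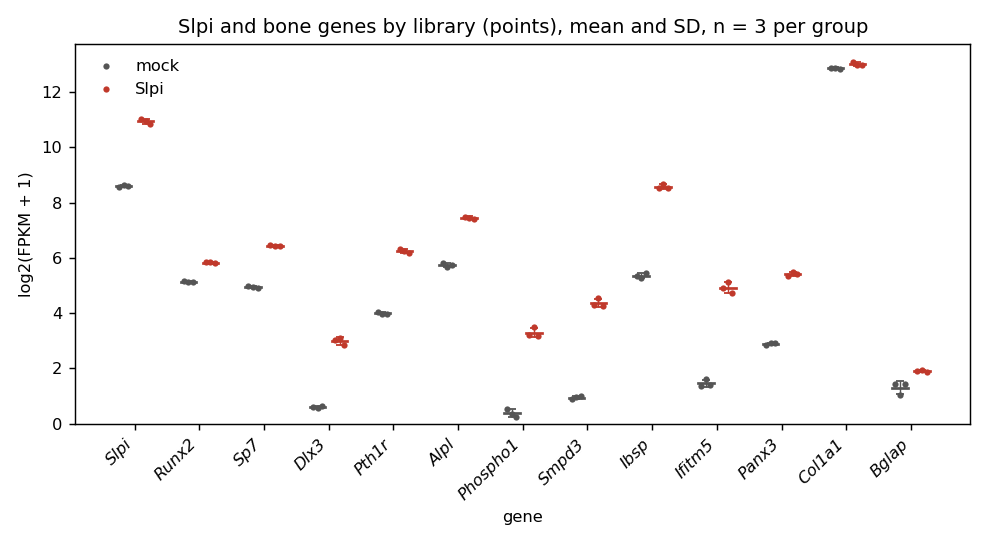
Log2(FPKM + 1) (vertical axis) of *Slpi* and 12 bone genes in each library (points), with the mean (horizontal line) and standard deviation (bar) of 3 libraries per group. The *Slpi* libraries stand above the mock libraries for every gene shown, by log2 fold changes between 0.15 (*Col1a1*) and 3.47 (*Ifitm5*). The genes were picked for display. Of 27 tested genes of bone matrix and mineralization, 8 fell, among them *Ogn* and *Spp1*, and are not shown.

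Wnt signaling has secreted ligands and antagonists, receptors of the Frizzled and LRP families, and target genes switched on by beta-catenin with TCF and LEF factors, several of which feed back on the pathway. The 3 levels of the pathway differed in their counts. Over all tested genes, 31.9% rose and 28.9% fell. Of 19 tested feedback and target genes, 15 rose and 3 fell, and 6 were 2-fold higher, with a median log2 fold change of 0.50. Of these 6, *Lef1*, *Nkd2* and *Apcdd1* reached 1 FPKM only in *Slpi* libraries, so the filter admitted them through the group where they were higher. Of 18 tested ligands and secreted regulators, 7 rose and 9 fell (median -0.15), and of 31 receptors and transducers, 8 rose and 12 fell (median -0.06), with 5 that rose without mock replicate 2.

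Among the targets, the largest rise was that of *Tcf7*, itself a TCF factor, at 2.57, 2.17 and 2.28 FPKM in mock and 36.6, 40.2 and 33.5 FPKM in *Slpi* cells (log2 fold change 3.50, SE 0.0727, adjusted *p* = 3.9e-08). Its relative *Lef1* was at 0.643, 0.588 and 0.764 FPKM in mock and 3.46, 3.897 and 3.31 FPKM in *Slpi* cells (log2 fold change 1.45, SE 0.0786, adjusted *p* = 4.2e-06). *Axin2*, the feedback inhibitor most used as a readout of beta-catenin activity, was at 2.69, 3.15 and 2.501 FPKM in mock and 10.5, 12.3 and 10.02 FPKM in *Slpi* cells (log2 fold change 1.66, SE 0.0876, adjusted *p* = 3.9e-06). All 3 were higher in every *Slpi* library than in any mock library, which held for 34.9% of all tested genes. *Nkd2*, an inhibitor that binds Dishevelled, was at 0.541, 0.754 and 0.495 FPKM in mock and 2.699, 3.57 and 2.53 FPKM in *Slpi* cells (log2 fold change 1.30, SE 0.113, adjusted *p* = 3.7e-05). *Apcdd1*, a membrane-bound Wnt antagonist, was at 0.455, 0.392 and 0.487 FPKM in mock and 6.42, 6.79 and 5.29 FPKM in *Slpi* cells (log2 fold change 2.30, SE 0.0891, adjusted *p* = 8.5e-07). *Tnfrsf19*, a receptor of the TNF family known as TROY, was at 7.09, 7.22 and 6.46 FPKM in mock and 42.5, 42.9 and 40.8 FPKM in *Slpi* cells (log2 fold change 2.44, SE 0.0474, adjusted *p* = 3.2e-08). The feedback inhibitors *Axin2*, *Nkd2* and *Apcdd1* rose. Of the 4 TCF and LEF factors, *Tcf7* and *Lef1* rose, and *Tcf7l1* and *Tcf7l2* fell (log2 fold changes -0.25 and -0.42). *Myc* and *Ccnd1*, targets that drive the cell cycle, had log2 fold changes of 0.69 and 0.45. *Wisp2*, *Nxn* and *Dact1* fell, with log2 fold changes of -0.68, -0.27 and -0.18. Without mock replicate 2, only 2 of the target genes fell.

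Of the ligands, *Wnt7b* was at 0.077, 0.106 and 0.097 FPKM in mock and 3.65, 3.85 and 3.07 FPKM in *Slpi* cells (log2 fold change 2.05, SE 0.0861, adjusted *p* = 1.3e-06), a gene near 0 in mock cells. *Wif1*, a secreted antagonist that binds Wnt proteins and is made by osteoblasts, was at 27.2, 25.3 and 27.6 FPKM in mock and 80.9, 89.5 and 80.3 FPKM in *Slpi* cells (log2 fold change 1.61, SE 0.0519, adjusted *p* = 3.5e-07). *Wif1* lies in a stretch of chromosome 10 whose genes were mostly higher. In contrast, the Wnt agonist *Rspo2* fell, at 11., 9.83 and 11.8 FPKM in mock and 5.68, 4.699 and 6.505 FPKM in *Slpi* cells (log2 fold change -0.85, SE 0.101, adjusted *p* = 0.00018). The secreted regulator *Sfrp2* was more abundant and also fell, at 261, 236 and 251 FPKM in mock and 146, 126 and 145 FPKM in *Slpi* cells (log2 fold change -0.84, SE 0.0627, adjusted *p* = 1.8e-05). The LRP genes moved in different directions. *Lrp4*, whose product binds sclerostin, was at 7.21, 7.26 and 7.44 FPKM in mock and 16.7, 17.1 and 15.1 FPKM in *Slpi* cells (log2 fold change 1.06, SE 0.0524, adjusted *p* = 3e-06). The co-receptor gene *Lrp5* was at 47.7, 46.1 and 45.9 FPKM in mock and 32.4, 30.5 and 31.98 FPKM in *Slpi* cells (log2 fold change -0.54, SE 0.0361, adjusted *p* = 1e-05). *Lrp6* fell as well, with a log2 fold change of -0.30. *Ctnnb1*, encoding beta-catenin, rose slightly, at 247, 260.2 and 254 FPKM in mock and 309.7, 302 and 299 FPKM in *Slpi* cells (log2 fold change 0.26, SE 0.0323, adjusted *p* = 0.00022).

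**Figure D3:**
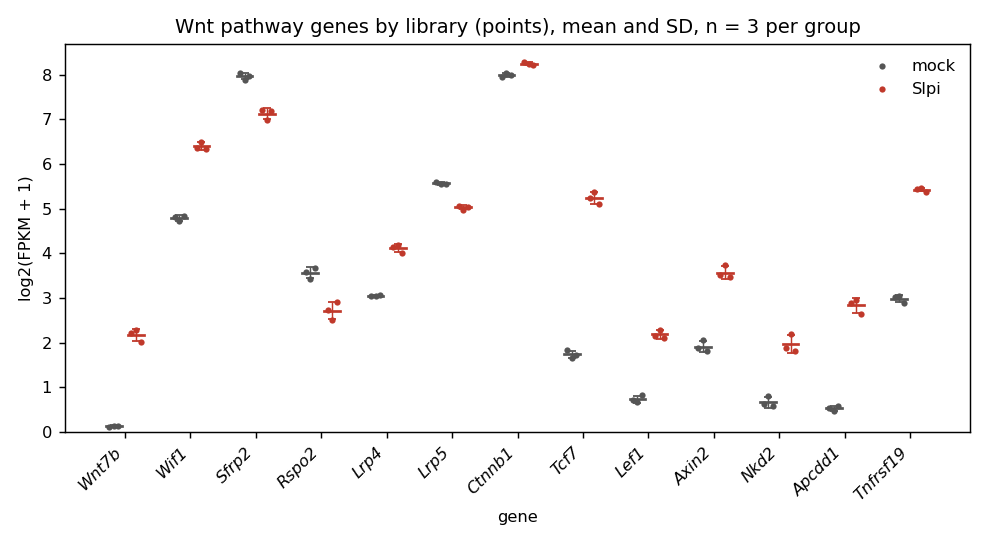
Log2(FPKM + 1) (vertical axis) of 13 Wnt pathway genes in each library (points), with the mean (horizontal line) and standard deviation (bar) of 3 libraries per group. Target genes from *Tcf7* to *Tnfrsf19* are higher in *Slpi* cells, while *Sfrp2*, *Rspo2* and *Lrp5* are lower. These 13 genes were picked for display. Of 19 tested feedback and target genes, 3 fell (*Wisp2*, *Nxn* and *Dact1*) and are not shown, nor are *Tcf7l1* and *Tcf7l2*, which also fell.

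Genes through which osteoblasts act on osteoclasts were next examined. Of 15 tested, 2 rose, both 2-fold, and 7 fell, against 31.9% and 28.9% of all tested genes that rose and fell. *Tnfrsf11b*, encoding the RANKL decoy receptor osteoprotegerin, was at 7.66, 7.64 and 6.87 FPKM in mock and 43.3, 52.5 and 46.2 FPKM in *Slpi* cells (log2 fold change 2.52, SE 0.0718, adjusted *p* = 1.7e-07). *Tnfsf11*, encoding RANKL, was under the filter in every library and was not tested, at 0.325, 0.536 and 0.529 FPKM in mock and 0.388, 0.217 and 0.388 FPKM in *Slpi* cells. The 2 groups overlapped for *Tnfsf11* and were far apart for *Tnfrsf11b*. *Pth1r*, the receptor of PTH on osteoblasts, was at 15.6, 14.8 and 14.6 FPKM in mock and 78.5, 75.6 and 72.2 FPKM in *Slpi* cells (log2 fold change 2.25, SE 0.0428, adjusted *p* = 3.2e-08). *Csf1*, the cytokine needed for osteoclast precursors, was at 209, 209.8 and 214 FPKM in mock and 177, 159.9 and 174 FPKM in *Slpi* cells (log2 fold change -0.31, SE 0.0417, adjusted *p* = 0.00033). *Vdr*, the vitamin D receptor, was at 76.5, 77.4 and 77.1 FPKM in mock and 40.2, 40.7 and 43.6 FPKM in *Slpi* cells (log2 fold change -0.88, SE 0.0373, adjusted *p* = 1.3e-06). Both *Csf1* and *Vdr* fell, with groups that did not overlap, as in 67.1% of all tested genes.

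Some of the largest rises belonged to none of these groups. *Panx3*, a pannexin channel of maturing osteoblasts, was at 6.17, 6.501 and 6.51 FPKM in mock and 39.2, 43.5 and 41.7 FPKM in *Slpi* cells (log2 fold change 2.52, SE 0.0469, adjusted *p* = 3.2e-08). *Abi3*, an adaptor of the WAVE complex, was at 1.03, 0.925 and 0.967 FPKM in mock and 21.3, 23.9 and 18.3 FPKM in *Slpi* cells (log2 fold change 3.48, SE 0.0865, adjusted *p* = 8.2e-08). *Abi3* and *Phospho1* lie on opposite strands of chromosome 11, and 1590 of their exon bases overlap. It is not stated that the authors' counting used strand, so their reads in this stretch cannot be told apart. *Rap1gap*, which switches off the adhesion GTPase RAP1, was at 2.46, 2.31 and 2.71 FPKM in mock and 12.8, 13.6 and 12.7 FPKM in *Slpi* cells (log2 fold change 2.01, SE 0.05796, adjusted *p* = 1.7e-07). *Ppfibp2*, a liprin of cell contacts, was at 0.558, 0.575 and 0.647 FPKM in mock and 5.24, 5.62 and 4.85 FPKM in *Slpi* cells (log2 fold change 1.97, SE 0.0703, adjusted *p* = 5.9e-07).

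The study asked how SLPI alters contact between osteoblasts and other cells, so genes of the cytoskeleton, adhesion and guidance were compared. Of 55 tested genes of RhoA and ROCK signaling and actomyosin, 9 rose and 24 fell (median log2 fold change -0.11). Over all tested genes, 31.9% rose and 28.9% fell. *Rhoa*, the GTPase itself, was at 152, 157 and 152 FPKM in mock and 147, 145 and 146 FPKM in *Slpi* cells (log2 fold change -0.07, SE 0.0294, adjusted *p* = 0.066). The kinase *Rock1* was at 6.34, 7.38 and 7.296 FPKM in mock and 5.96, 6.93 and 7.98 FPKM in *Slpi* cells (log2 fold change -0.01, SE 0.0947, adjusted *p* = 0.9, 95% confidence interval -0.23 to 0.20). *Rock2* was at 21.8, 23.1 and 23.8 FPKM in mock and 18.8, 20.7 and 22.3 FPKM in *Slpi* cells (log2 fold change -0.15, SE 0.0628, adjusted *p* = 0.069, 95% confidence interval -0.292 to -0.00476). None of these 3 passed the threshold in limma at the adjusted *p*, and *Rhoa* and *Rock2* would have passed without adjustment. Without *Slpi* replicate 3, *Rock2* passed (log2 fold change -0.21, adjusted *p* = 0.02). The members that fell most encode contractile proteins or a related GTPase. *Cnn1*, the actin-binding protein calponin, was at 10.4, 9.65 and 9.43 FPKM in mock and 4.27, 3.77 and 4.54 FPKM in *Slpi* cells (log2 fold change -1.06, SE 0.0662, adjusted *p* = 7.6e-06). *Myl9*, a regulatory light chain of myosin, was at 326, 321 and 309 FPKM in mock and 171, 157 and 161 FPKM in *Slpi* cells (log2 fold change -0.96, SE 0.0393, adjusted *p* = 1.1e-06). *Rhob* was at 56.5, 55.1 and 54.8 FPKM in mock and 30.1, 29.6 and 27.4 FPKM in *Slpi* cells (log2 fold change -0.91, SE 0.0415, adjusted *p* = 1.8e-06), and *Acta2*, smooth muscle actin, was at 695, 727 and 703 FPKM in mock and 431, 395 and 417 FPKM in *Slpi* cells (log2 fold change -0.77, SE 0.0398, adjusted *p* = 3.5e-06). The largest rise of the list was that of *Ect2*, an exchange factor for RhoA at cell division, with a log2 fold change of 0.62.

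Adhesion genes fell more often than they rose, 15 against 5 of 26 tested (median -0.24), with 3 that rose without mock replicate 1 or *Slpi* replicate 2. The shares over all tested genes were 28.9% lower and 31.9% higher. *Vcam1*, a ligand of leukocyte integrins, was at 103, 109 and 104 FPKM in mock and 69.9, 70.05 and 72.4 FPKM in *Slpi* cells (log2 fold change -0.57, SE 0.0339, adjusted *p* = 6.4e-06). *Itga11*, a collagen-binding integrin chain, and *Thy1*, a surface glycoprotein of stromal cells, had log2 fold changes of -0.55 and -0.58. *Icam1* was near 0 in both groups and was not tested, at 0.06, 0.105 and 0.098 FPKM in mock and 0.084, 0.154 and 0.236 FPKM in *Slpi* cells.

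The guidance genes were mixed. Of 19 tested semaphorins, plexins and neuropilins, 7 rose, 3 of them 2-fold, and 6 fell. Both counts were near the shares of 31.9% and 28.9% over all tested genes. *Plxnb1*, the receptor of semaphorin 4D, was at 3.58, 3.58 and 3.504 FPKM in mock and 6.25, 5.38 and 5.09 FPKM in *Slpi* cells (log2 fold change 0.53, SE 0.0703, adjusted *p* = 0.00031). *Sema6a* was at 1.14, 1.32 and 1.01 FPKM in mock and 6.81, 7.26 and 6.56 FPKM in *Slpi* cells (log2 fold change 1.87, SE 0.0717, adjusted *p* = 8e-07). *Nrp2*, a co-receptor of class 3 semaphorins, was at 52.1, 50.8 and 49.2 FPKM in mock and 113, 119 and 109 FPKM in *Slpi* cells (log2 fold change 1.15, SE 0.0398, adjusted *p* = 5.2e-07), and *Sema3d*, a class 3 semaphorin near 0 in mock cells, was at 0.077, 0.133 and 0.121 FPKM in mock and 1.14, 1.395 and 1.17 FPKM in *Slpi* cells (log2 fold change 1.01, SE 0.0872, adjusted *p* = 3.5e-05). All 4 were higher in every *Slpi* library than in any mock library, as were 34.9% of all tested genes. Of 13 tested ephrins and Eph receptors, 4 rose and 6 fell, with log2 fold changes of 0.41 for *Efna5*, -0.44 for *Epha2* and -0.36 for *Ephb3*, and 2 rose without *Slpi* replicate 2.

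Growth factor genes fell more often than they rose, whereas 28.9% of all tested genes fell and 31.9% rose. Of 31 tested PDGF, IGF, FGF and VEGF genes, 9 rose and 18 fell, and of 33 BMP and TGF-beta genes, 5 rose and 20 fell (medians -0.21 and -0.30). Without mock replicate 1 or *Slpi* replicate 3, 3 of the BMP and TGF-beta genes rose. *Igf1*, an anabolic factor for bone, was at 55.05, 52.6 and 61.1 FPKM in mock and 20.8, 22.7 and 24.8 FPKM in *Slpi* cells (log2 fold change -1.27, SE 0.0716, adjusted *p* = 5.1e-06). *Igfbp5*, an IGF-binding protein of bone matrix, was at 103, 102 and 104 FPKM in mock and 48.01, 45.4 and 46.8 FPKM in *Slpi* cells (log2 fold change -1.12, SE 0.0317, adjusted *p* = 1.7e-07). *Pdgfa*, a mitogen of mesenchymal cells, went the other way, at 23.5, 23.3 and 20.4 FPKM in mock and 62.7, 63.5 and 54.3 FPKM in *Slpi* cells (log2 fold change 1.39, SE 0.0721, adjusted *p* = 3.6e-06). *Fgf2* was at 1.01, 1.16 and 1.43 FPKM in mock and 0.408, 1.32 and 1.72 FPKM in *Slpi* cells, and its groups overlapped (log2 fold change -0.08, SE 0.217, adjusted *p* = 0.76, 95% confidence interval -0.58 to 0.42). *Tgfbi*, a matrix protein induced by TGF-beta, was at 33.7, 34.6 and 35.5 FPKM in mock and 18.2, 17.5 and 16.3 FPKM in *Slpi* cells (log2 fold change -0.96, SE 0.0457, adjusted *p* = 2.4e-06). *Ltbp1* and *Fstl1*, both of which bind TGF-beta family members, had log2 fold changes of -0.52 and -0.48.

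The largest falls included *Nov*, a secreted protein of the CCN family that inhibits osteoblast maturation, at 320.3, 305 and 327 FPKM in mock and 87.7, 83.9 and 91.8 FPKM in *Slpi* cells (log2 fold change -1.84, SE 0.0422, adjusted *p* = 6.2e-08). Of the 14 tested CCN genes and YAP targets, 2 rose and 9 fell (median -0.33), and the rises were lost or fewer without mock replicate 1 or 3 or *Slpi* replicate 2. *Crabp1*, which binds retinoic acid in the cytoplasm, was at 32.8, 36.1 and 37.7 FPKM in mock and 8.54, 9.69 and 8.62 FPKM in *Slpi* cells (log2 fold change -1.88, SE 0.0636, adjusted *p* = 4.7e-07), and its relative *Crabp2* was at 100.4, 101 and 97.8 FPKM in mock and 47.02, 45.8 and 44.4 FPKM in *Slpi* cells (log2 fold change -1.11, SE 0.0333, adjusted *p* = 2.2e-07). Of 12 tested retinoic acid genes, 1 rose and 7 fell, where 31.9% and 28.9% of all tested genes did. Of 12 tested Notch and Hedgehog genes, 1 rose and 7 fell, the rise being that of *Ptch1*, a receptor and target of Hedgehog signaling, with a log2 fold change of 0.81. *Lfng* and *Boc* had log2 fold changes of -0.51 and -0.56.

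Other large falls had varied functions. *Neat1*, the noncoding RNA that scaffolds paraspeckles, was at 76.4, 77.5 and 81.4 FPKM in mock and 27.6, 28.1 and 28.7 FPKM in *Slpi* cells (log2 fold change -1.45, SE 0.0359, adjusted *p* = 8.2e-08). *Akap12*, an anchor of protein kinase A, was at 20.5, 19.8 and 20.04 FPKM in mock and 7.01, 6.68 and 7.08 FPKM in *Slpi* cells (log2 fold change -1.41, SE 0.0403, adjusted *p* = 1.7e-07), and *Actg2*, a smooth muscle actin, was at 75.98, 79.97 and 79.9 FPKM in mock and 32.03, 31.3 and 32.1 FPKM in *Slpi* cells (log2 fold change -1.28, SE 0.0337, adjusted *p* = 1.2e-07). *Entpd3*, an ectonucleotidase, was at 75.3, 78.1 and 77.2 FPKM in mock and 32.4, 28.7 and 32.7 FPKM in *Slpi* cells (log2 fold change -1.27, SE 0.0514, adjusted *p* = 1e-06). The anion transporter gene *Slc26a7*, *Xlr*, the matricellular gene *Tinagl1*, *Slurp1*, *Haghl*, *Acpp* and the carbonyl reductase gene *Cbr2* fell as well, with log2 fold changes between -1.54 and -1.20. *Rmrp*, a short noncoding RNA of RNase MRP, was more variable, at 14.7, 18.9 and 26.2 FPKM in mock and 6.88, 14.6 and 4.02 FPKM in *Slpi* cells (log2 fold change -1.26, SE 0.368, adjusted *p* = 0.017), and did not pass without mock replicate 3 (adjusted *p* = 0.052).

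Genes of serine proteases, of protease inhibitors and of related proteins were next counted. They included *Timp1*, *Timp2*, *Timp3* and *Cst3*, whose products inhibit proteases of other classes, and also *Serpinh1*, *F3* and *Grn*. Of 19 tested, 4 rose and 12 fell (median -0.21), against 31.9% and 28.9% of all tested genes, and *Slpi* was not counted among them. *Prss23* was at 77.9, 80.99 and 79.1 FPKM in mock and 42.5, 41.4 and 41.3 FPKM in *Slpi* cells (log2 fold change -0.91, SE 0.0314, adjusted *p* = 5.2e-07). *Serpinb9*, an inhibitor of granzyme B, and *F3*, tissue factor, had log2 fold changes of -0.64 and -0.61. *Grn*, encoding progranulin, which SLPI protects from cleavage, fell slightly, at 176, 179 and 172 FPKM in mock and 164, 144 and 150.2 FPKM in *Slpi* cells (log2 fold change -0.20, SE 0.0474, adjusted *p* = 0.0059).

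Genes of NF-kappaB signaling, which SLPI can restrain in leukocytes, fell more often than they rose, 10 against 4 of 20 tested (median -0.14). Over all tested genes, 31.9% rose and 28.9% fell. *Nfkbia*, encoding the inhibitor IkappaB-alpha, was at 20.01, 18.3 and 19.7 FPKM in mock and 18.1, 16.04 and 16.5 FPKM in *Slpi* cells (log2 fold change -0.19, SE 0.0547, adjusted *p* = 0.017). It did not pass without mock replicate 1 or 3 or *Slpi* replicate 2 or 3 (adjusted *p* between 0.053 and 0.06), and without mock replicate 1 or *Slpi* replicate 2, only 2 genes of the list rose. *Nfkb2* and *Sod2* had log2 fold changes of -0.24 and 0.39. Of 12 tested chemokine genes, 2 rose and 7 fell, and *Ackr3*, *Ccl7* and *Cxcl12* had log2 fold changes of -0.80, -0.64 and -0.49. The 2 that rose were *Ccl5*, at 6.12, 6.18 and 7.96 FPKM in mock and 8.67, 8.3 and 8.93 FPKM in *Slpi* cells (log2 fold change 0.32, SE 0.0875, adjusted *p* = 0.012), and *Ccl25* (log2 fold change 0.32). *Ccl25* did not pass without mock replicate 1 or *Slpi* replicate 1 or 2 (adjusted *p* in limma of 0.11, 0.11 and 0.12).

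Of 31 tested interferon-stimulated genes, 17 fell and 14 did not pass, with a median log2 fold change of -0.38. The share of all tested genes that fell was 28.9%. Values near 0 were found for *Psmb8* (0.075), *Ifih1* (0.059) and *Tap1* (-0.023). The count that fell was as low as 12 under the alternatives. *B2m* and *H2-D1*, both of MHC class I, were measured with little spread. *B2m* was at 422, 471 and 432 FPKM in mock and 354, 332 and 357 FPKM in *Slpi* cells (log2 fold change -0.34, SE 0.0485, adjusted *p* = 0.00042), and *H2-D1* was at 105, 112 and 109 FPKM in mock and 83.2, 76.6 and 79.6 FPKM in *Slpi* cells (log2 fold change -0.44, SE 0.04003, adjusted *p* = 4.6e-05). *Ddx58*, the RNA sensor RIG-I, had a log2 fold change of -0.38. One library stood apart. Mock replicate 2 had the highest FPKM for 30 of the 31 genes, and their FPKM summed to 1070.1, 1226 and 1057 in mock replicates 1 to 3 and to 948, 861 and 903 in *Slpi* cells. Without mock replicate 2, 14 of the genes fell, and without mock replicate 3, 26 fell. *Isg15* shows the spread, at 16.9, 29.9 and 15.2 FPKM in mock and 16.4, 12.8 and 12.9 FPKM in *Slpi* cells (log2 fold change -0.48, SE 0.218, adjusted *p* = 0.089), and it passed without mock replicate 3 (log2 fold change -0.65, adjusted *p* = 0.029).

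Of 37 tested genes of the cell cycle, 31 rose, 2 fell and 4 did not pass, with a median log2 fold change of 0.53. The share of all tested genes that rose was 31.9%. *Mcm5*, a subunit of the replicative helicase, was at 34.6, 34.98 and 35.7 FPKM in mock and 66.3, 69.1 and 63.3 FPKM in *Slpi* cells (log2 fold change 0.90, SE 0.0387, adjusted *p* = 1.4e-06). *Cdk4*, the G1 kinase, was at 338, 332 and 337 FPKM in mock and 506, 512 and 481 FPKM in *Slpi* cells (log2 fold change 0.57, SE 0.0335, adjusted *p* = 5.7e-06). *Cdc20*, an activator of the anaphase-promoting complex, was at 45.2, 46.4 and 47.1 FPKM in mock and 70.1, 72.7 and 67.3 FPKM in *Slpi* cells (log2 fold change 0.59, SE 0.0375, adjusted *p* = 8.5e-06), and the replication clamp *Pcna* was at 142, 155 and 151 FPKM in mock and 221, 244 and 224 FPKM in *Slpi* cells (log2 fold change 0.62, SE 0.0482, adjusted *p* = 2.2e-05). The rises were all under 2-fold, the largest being that of *Mcm5*. *Mki67*, a marker of cycling cells, was at 34.5, 35.9 and 36.4 FPKM in mock and 35.3, 42.9 and 42.5 FPKM in *Slpi* cells, with overlapping groups (log2 fold change 0.17, SE 0.0699, adjusted *p* = 0.068), and it passed without *Slpi* replicate 1 (log2 fold change 0.26, adjusted *p* = 0.00077). The 2 genes that fell, *Cdkn1b* and *Cdkn2c*, encode inhibitors of cyclin-dependent kinases, and only 1 of them passed without mock replicate 1. *Cdkn1a*, which encodes another such inhibitor, p21, rose, at 72.2, 66.9 and 74.5 FPKM in mock and 100.5, 88.6 and 95.3 FPKM in *Slpi* cells (log2 fold change 0.41, SE 0.0552, adjusted *p* = 0.00033).

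**Figure D4:**
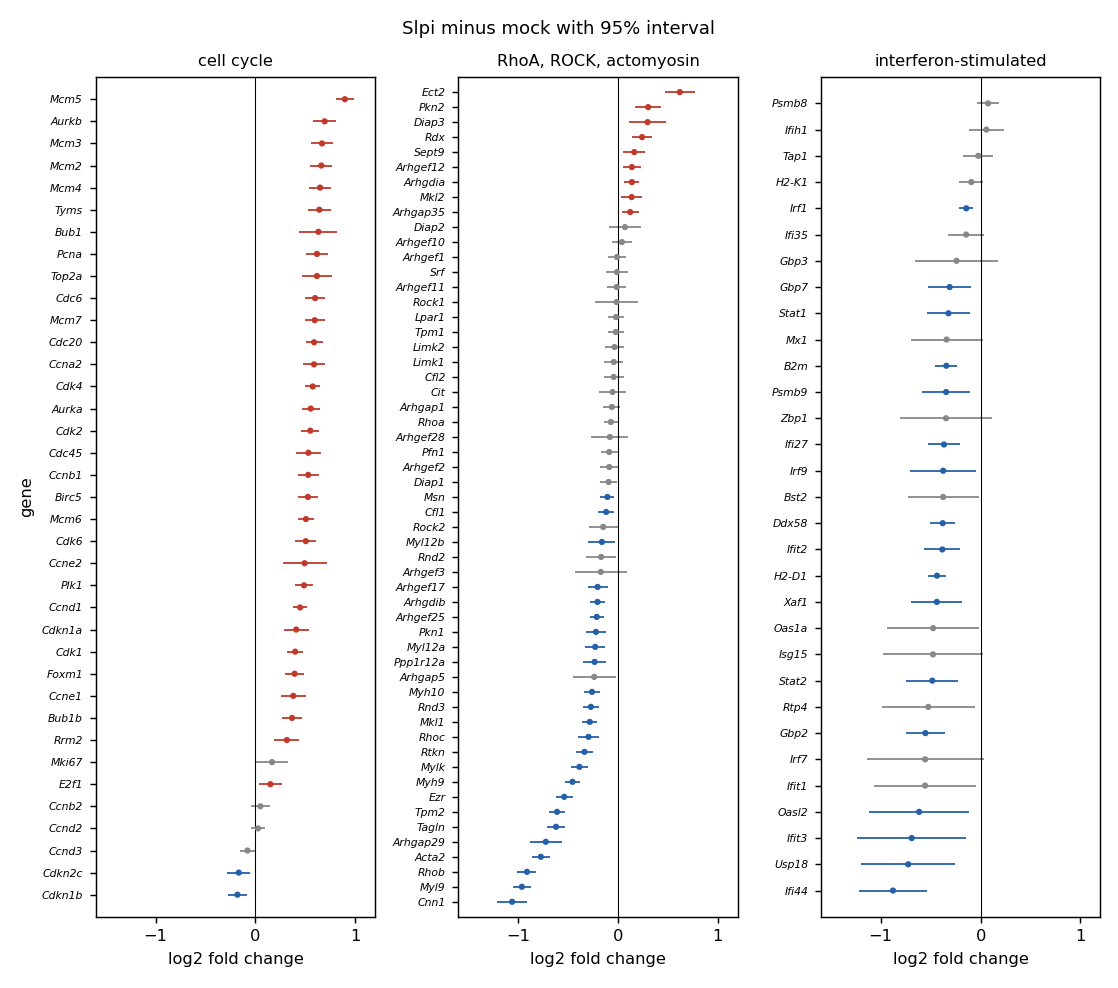
Log2 fold change (*Slpi* minus mock, horizontal axis) with its 95% confidence interval (line) for each tested gene (vertical axis) of cell cycle, RhoA and ROCK signaling with actomyosin, and interferon-stimulated genes, in red or blue where the gene rose or fell and gray otherwise. Of these, 31 of 37 cell cycle genes rose, 24 of 55 RhoA and actomyosin genes fell, and 17 of 31 interferon-stimulated genes fell.

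**Figure D5:**
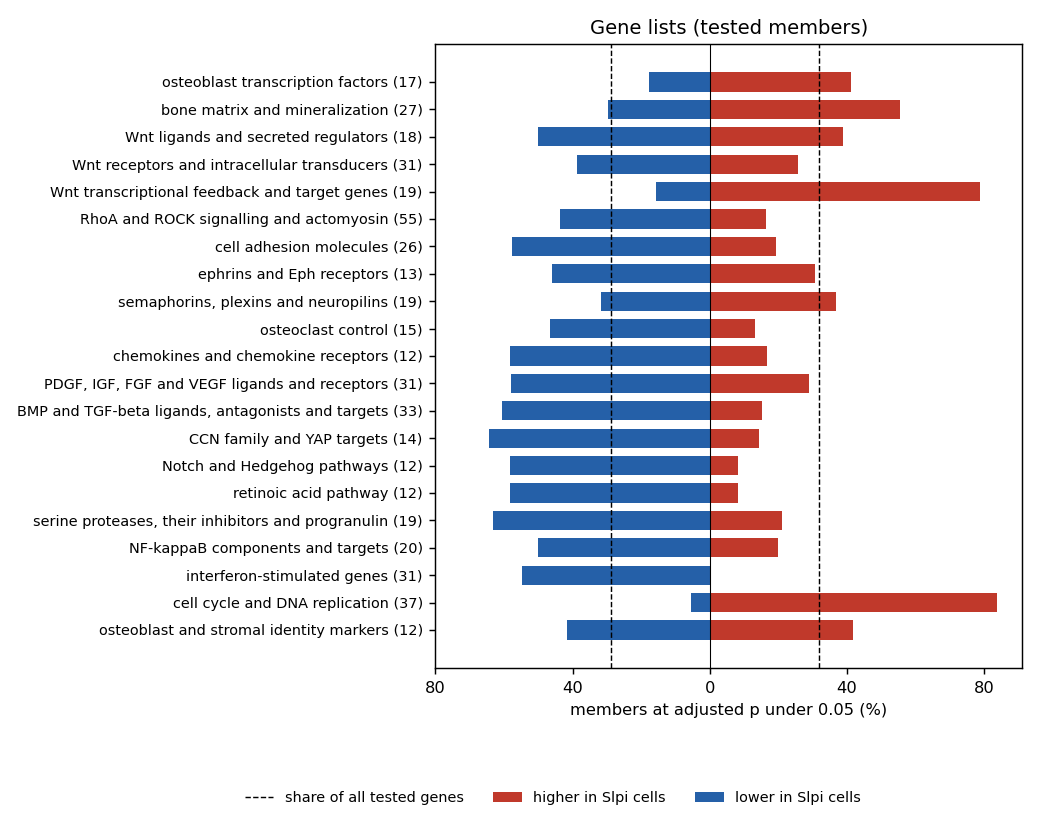
Percentage of the tested members of each gene list (number in parentheses) that rose (red, to the right) or fell (blue, to the left) in *Slpi* cells, with dashed lines at 31.9% and 28.9%, the shares over all tested genes. Wnt target genes and cell cycle genes reach farthest to the right, and no list was tested as a set.

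Tested genes were also compared by their position in the genome. In chromosome 10 between positions 110000000 and 125000000 (mm10), 41 of 50 tested genes rose and 3 fell, with a median log2 fold change of 0.62. The medians of the 3 windows of 5 Mb in this stretch were between 0.51 and 0.76, whereas those of 375 other windows with at least 10 tested genes were between -0.25 and 0.28. The stretch holds 10 of the 84 genes that were 2-fold higher, among them *Wif1* and *Mdm2*, a negative regulator of p53, at 28.8, 27.6 and 29.1 FPKM in mock and 62.4, 58.2 and 61.1 FPKM in *Slpi* cells (log2 fold change 1.06, SE 0.0386, adjusted *p* = 6.3e-07). All 4 tested genes of chromosome Y fell, with log2 fold changes of -1.07 (*Eif2s3y*), -1.01 (*Kdm5d*), -0.78 (*Ddx3y*) and -0.58 (*Uty*). Both were chosen after the values were seen, and neither the copy number of these chromosomes nor its part in the other results was tested. Without these genes, 74 genes were 2-fold higher and 42 were 2-fold lower.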

How the data were processed

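RNA-Seq values of 3 mock and 3 *Slpi*-overexpressing MC3T3-E1 libraries were analysed, and the FPKM of 6 libraries of sorted osteoblasts were not used here. The authors deposited FPKM per gene symbol. According to the methods and the submitters' processing notes, single-end reads were mapped to mm10 with TopHat2 2.0.13, Bowtie2 2.2.3 and SAMtools 0.1.19, and FPKM were calculated with Cufflinks 2.2.1 (Cuffnorm). The annotation, the scaling and the use of strand are not given in the sources used here, and labels and methods name different library kits. Depth in reads is unknown, so no count model was used and low FPKM have unknown counting error.

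FPKM were transformed to log2(FPKM + 1), and of 24346 genes, the 11466 that reached 1 FPKM in any of the 6 libraries were tested. Groups were taken from the labels. A linear model without a replicate block was fitted per gene by limma 3.58.1 (R 4.3.3) with a variance trend in eBayes, after being tested on simulated data, and its two-sided *p* values received Benjamini-Hochberg adjustment. Summaries were made in Python 3.11.15 with pandas 2.3.3, numpy 2.4.6 and scipy 1.17.1. Alternatives were a replicate block, other filters, a pseudocount of 0.1, no trend, quantile normalization, short RNA genes left out and each library left out. Leaving out the genes of the chromosome 10 stretch and of chromosome Y was added after the data were seen.

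Named genes were *Slpi* and 13 genes that the study names for these cells, the 15 rises and 15 falls of greatest size among 2-fold genes with groups that did not overlap and a mean of at least 5 FPKM in the higher group (leaving out microRNA and small nucleolar RNA genes and unnamed gene models), and the members of each list that were 2-fold or otherwise the 3 with the smallest *p*. Other named genes were chosen after their values were seen: those of the additional observations, the chromosome Y genes and *Mdm2*, markers of other cell types, and in the lists *Msx2*, *Ebf1*, *Tcf7l2*, *Col1a2*, *Bglap2*, *Ogn*, *Spp1*, *Myc*, *Ccnd1*, *Wisp2*, *Nxn*, *Rspo2*, *Sfrp2*, *Lrp5*, *Tnfsf11*, *Csf1*, *Vdr*, *Myl9*, *Rhob*, *Acta2*, *Ect2*, *Isg15*, *Pcna*, *Mki67*, *Cdkn1a*, *Cdkn1b*, *Cdkn2c*, *Tcf7l1*, *Psmb8*, *Ifih1*, *Tap1*, *Ccl5* and *Ccl25*. *Dact1*, *Dmp1*, *Sost*, *Phex*, *Mepe* and *Fgf23* were also named after their values were seen. The lists and members were chosen with earlier results of these data known. Positions, exon overlaps and the *Slpi* coding sequence came from GENCODE M21 (mm10). Exons of other named genes also overlapped a gene on the other strand, such as *Fgf2* with *Nudt6* (640 bases) and *Cdk4* with *Tspan31* (641 bases). A promoter motif comparison was void, since under 80% of the 2-fold higher genes had a promoter sequence.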

Additional observations from a re-analysis of the deposited data

How the results depend on the processing

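The counts over all genes held within 1.5 times under the other filters, normalization and left-out libraries, except that a pseudocount of 0.1 gave 136 genes 2-fold higher and 125 2-fold lower in place of 84 and 44. Leaving out 1 library in turn gave 3208 to 3628 genes higher, 2922 to 3293 lower, 80 to 89 2-fold higher and 39 to 48 2-fold lower, and a log2 fold change of *Slpi* of 2.30 to 2.40. Deviations from the group means of same-numbered libraries had correlations of 0.039, -0.052 and -0.0. Those of differently numbered libraries were between -0.099 and 0.105. Whether same-numbered libraries were prepared together was not tested. With the replicate number as a block, 3752 genes were higher and 3420 lower, and 84 and 44 were 2-fold. No named gene that passed changed direction. Values of genes that had not passed changed sign when 1 library was left out: *Rock1* (0.0193 and 0.0124 without mock replicates 2 and 3, and 0.0784 without *Slpi* replicate 1, within a range of -0.1058 to 0.0784), *Fgf2* (0.1963 without *Slpi* replicate 1, within -0.2774 to 0.1963) and *Col1a2* (0.001 and 0.0092 without mock replicates 1 and 2, and 0.0055 and 0.019 without *Slpi* replicates 2 and 3, within -0.0369 to 0.019). In at least 1 alternative, 5 named genes that had passed no longer did (*Col1a1*, *Nfkbia*, *Rmrp*, *Ccl25* and the cartilage gene *Col2a1*). *Rhoa* and *Rock2* passed under quantile normalization (adjusted *p* in limma of 0.024 and 0.042), and *Rock2* also with the block (0.014), as did *Mki67* (0.025). Of 1568 counts for gene lists under alternatives, 39 moved by over 1.5 times, including the 3 osteoblast transcription factors that fell, which were 5 under quantile normalization. Under quantile normalization the difference of *Col1a1* was 0.0, because it was the top gene in all libraries. Over the alternatives, between 12 and 26 interferon-stimulated genes fell, and between 22 and 31 genes of RhoA and ROCK signaling and actomyosin fell. FPKM give no number of reads, which limits what can be said of low genes.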

Other observations

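Further genes with 2-fold differences had functions outside the lists, and those named here were picked after their values were seen. *Mef2c*, a transcription factor of muscle and bone cells, was at 3.67, 3.46 and 3.397 FPKM in mock and 11.5, 13.3 and 12.3 FPKM in *Slpi* cells (log2 fold change 1.56, SE 0.0599, adjusted *p* = 8e-07). *Mycn*, the relative of *Myc*, was at 0, 0.015 and 0.016 FPKM in mock and 1.22, 1.44 and 1.07 FPKM in *Slpi* cells (log2 fold change 1.15, SE 0.0927, adjusted *p* = 2.6e-05), and was thus nearly undetected in mock cells. *Lepr*, the leptin receptor, was at 0.878, 0.796 and 0.895 FPKM in mock and 3.18, 4.05 and 3.95 FPKM in *Slpi* cells (log2 fold change 1.34, SE 0.0862, adjusted *p* = 8.8e-06). *Enpp2*, encoding autotaxin, which makes lysophosphatidic acid, was at 1.73, 1.45 and 1.66 FPKM in mock and 5.44, 6.84 and 5.64 FPKM in *Slpi* cells (log2 fold change 1.41, SE 0.0867, adjusted *p* = 7e-06). *Car3*, a carbonic anhydrase, was at 0.105, 0.053 and 0.087 FPKM in mock and 3.34, 4.21 and 3.58 FPKM in *Slpi* cells (log2 fold change 2.12, SE 0.0871, adjusted *p* = 1.1e-06), and *Tubb3*, a tubulin best known from neurons, was at 2.16, 1.76 and 2.38 FPKM in mock and 7.69, 9.74 and 7.57 FPKM in *Slpi* cells (log2 fold change 1.59, SE 0.105, adjusted *p* = 1e-05). Each of the 6 genes was higher in all *Slpi* libraries than in any mock library, as were 34.9% of all tested genes.

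Matrix and secreted genes were among the other falls. *Aspn*, a small leucine-rich proteoglycan that binds collagen, was at 184, 206 and 196 FPKM in mock and 79.5, 93.1 and 98.9 FPKM in *Slpi* cells (log2 fold change -1.11, SE 0.0768, adjusted *p* = 1.3e-05). *Ptx3*, a secreted pattern recognition molecule, was at 217, 189.6 and 210.3 FPKM in mock and 99.1, 86.5 and 109 FPKM in *Slpi* cells (log2 fold change -1.06, SE 0.08199, adjusted *p* = 2e-05). *Sulf1*, which edits heparan sulfate, was at 15.8, 15.8 and 16.4 FPKM in mock and 7.43, 7.52 and 7.298 FPKM in *Slpi* cells (log2 fold change -1.01, SE 0.0394, adjusted *p* = 8.5e-07), and *Dio3*, which inactivates thyroid hormone, was at 14.02, 12.7 and 14.8 FPKM in mock and 6.69, 5.13 and 7.17 FPKM in *Slpi* cells (log2 fold change -1.03, SE 0.105, adjusted *p* = 7.6e-05). Short RNA genes gave the most extreme differences. *Mir8097* was at 8.79, 294 and 144 FPKM in *Slpi* libraries but listed at 0 in every library of mock cells, whereas *Mir6376* was at 62.9, 21.1 and 46.2 FPKM in mock libraries and listed at 0 in all *Slpi* libraries.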
